A study of Sus scrofa with 15 samples.

Results

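The comparison covered here sets the subcutaneous backfat of Iberian pigs given the WCOC diet (wet crude olive cake) against that of pigs given the control diet (C). It takes in 10 of the 15 samples of the series, 5 per diet, each a biopsy of 1 pig read as 1 RNA-seq library, and they were chosen by the diet on their label. The other 5 samples, from pigs given a feed with dry olive pulp (DOP), entered the model fit as another group and are not described. Of the 30477 genes in the files, 14918 passed the filter on low counts and were compared, with most weight on genes that rose in WCOC and on processes other than lipid synthesis, cell division and macrophage genes.

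All pigs were of the Iberian genotype and were sampled as growing animals at the end of the feeding period. The C pigs ate a compound feed. Those on WCOC ate another compound feed and had free access to a silage of crude olive cake and barley straw. Both compound feeds were rationed, that of C less tightly. Each diet was fed in 1 pen, so the diet, the pen and the ration cannot be told apart. The libraries came from pigs selected by the quantity and quality of their RNA, and neither their sex nor the hour of the biopsy was given in the sources used here.

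Backfat is a store of triglyceride under the skin. Its adipocytes take up or make fatty acids, tie them to glycerol, and release them again when adrenaline and related signals raise cyclic AMP inside the cell. Around them lie capillaries whose endothelium holds the enzyme that frees fatty acids from blood lipids, fibroblasts that lay down collagen, and macrophages. Adipocytes are also endocrine cells, and adiponectin is the hormone for which they are best known.

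Counts on genes ranged from 22373715 to 32266457 per library, and adipocyte transcripts were abundant in all 10: the adipocyte marker list summed to 22627 to 32478 counts scaled to the library's total (CPM), with overlapping diets. CPM take no account of gene length, so they rank libraries for 1 gene and do not rank genes. Transcripts of other cells varied. The macrophage list summed to 725, 767, 2049, 769 and 2667 CPM in C replicates 1 to 5 and to 359, 757, 350, 428 and 519 in WCOC. The skeletal muscle list reached 3468 CPM in C 1 and 6534 in C 3, with 254 to 1447 in the other 8 libraries, and the epidermis list reached 103 in WCOC 2 and 155 in WCOC 5, with 4.07 to 52.8 in the other 8. The fibroblast list summed to 2586 to 3450 CPM in C and 1729 to 2688 in WCOC. In bulk tissue, fewer cells of a type and less RNA per cell cannot be told apart. The part of these cells in the differences that follow was not tested. By the run names of the files, C 5 was run on another flow cell (B) than the other 9 libraries (A).

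**Figure D1:**
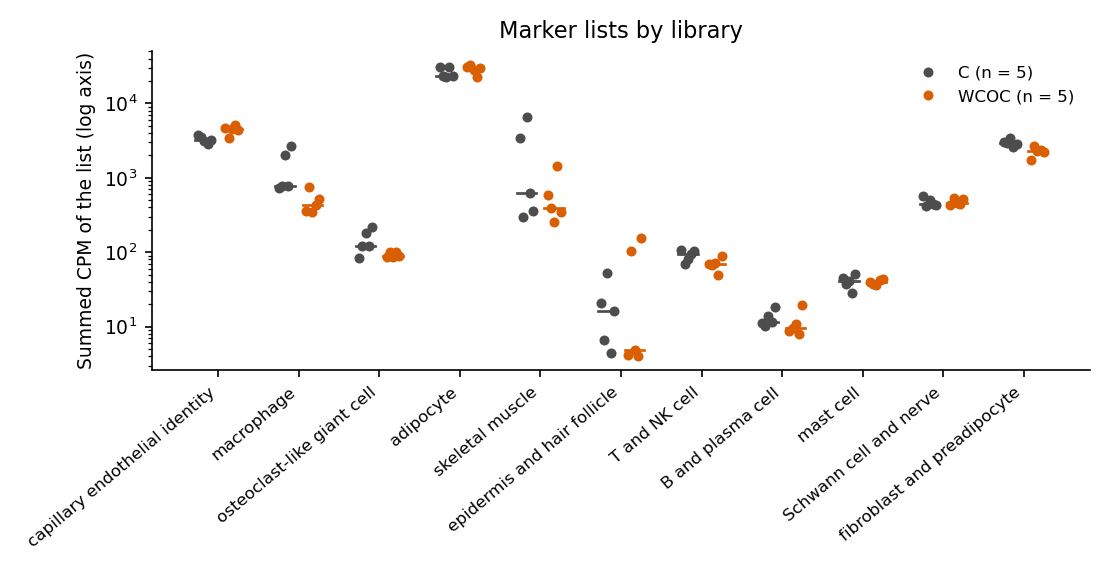
Summed CPM (log axis) of the capillary endothelial list and of the 10 marker lists in each of the 5 C and 5 WCOC libraries, with a bar at the median. C 3 and C 5 hold the most macrophage transcripts (2049 and 2667 CPM), C 1 and C 3 the most skeletal muscle transcripts, and 4 of the 5 WCOC libraries lie above all C libraries for the endothelial list.

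A gene was called when edgeR's quasi-likelihood test gave an adjusted p under 0.05 and the log2 fold change (log2FC, WCOC over C) was at least 0.58 in size. By this rule 347 genes were higher in WCOC, 2.33% of those tested, and 586 were lower, 3.93%, in all 933 genes or 6.25%. The adjusted p alone passed for 686 genes on the higher side (4.60%) and 807 on the lower side (5.41%). The rises were smaller than the falls: their median log2FC was 0.85 against -1.27, and 33.7% of the rises and 65.0% of the falls were more than 2-fold. Over all genes the median log2FC was 0.00. In 225 of the called rises and 324 of the called falls the 5 WCOC and the 5 C values did not overlap. Calling itself favours such genes, and the share over all tested genes was not counted, so these counts are descriptive only. The number of calls depended on single pigs: 468 genes were called without WCOC 1, 532 without C 3 and 596 without WCOC 4. Without both C 3 and C 5, the libraries richest in macrophage transcripts, 87 genes were higher and 202 lower, and without both C 1 and C 3, those richest in muscle transcripts, 125 were higher and 318 lower.

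For a view of named processes, 41 lists of genes were written from general knowledge with earlier results of these data known, so their shares describe the lists and are no independent evidence. In all, 101 of the 347 rises and 103 of the 586 falls belonged to at least 1 of them. A gene symbol was known for 223 of the rises, 499 of the falls and 11955 of the 14918 tested genes. Symbols were needed for the rankings of named genes and, synonyms aside, for a place on a list. Rises without one are therefore not described. The mean was under 1 CPM in 51 of the rises and 51 of the falls. Figures for each list are given as counts of its tested members beside the background shares of 2.33% higher and 3.93% lower. These shares are over all 14918 tested genes, including those without a symbol, and were not worked out for genes with a symbol alone. Counts without pairs of C libraries are given for some lists only.

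**Figure D2:**
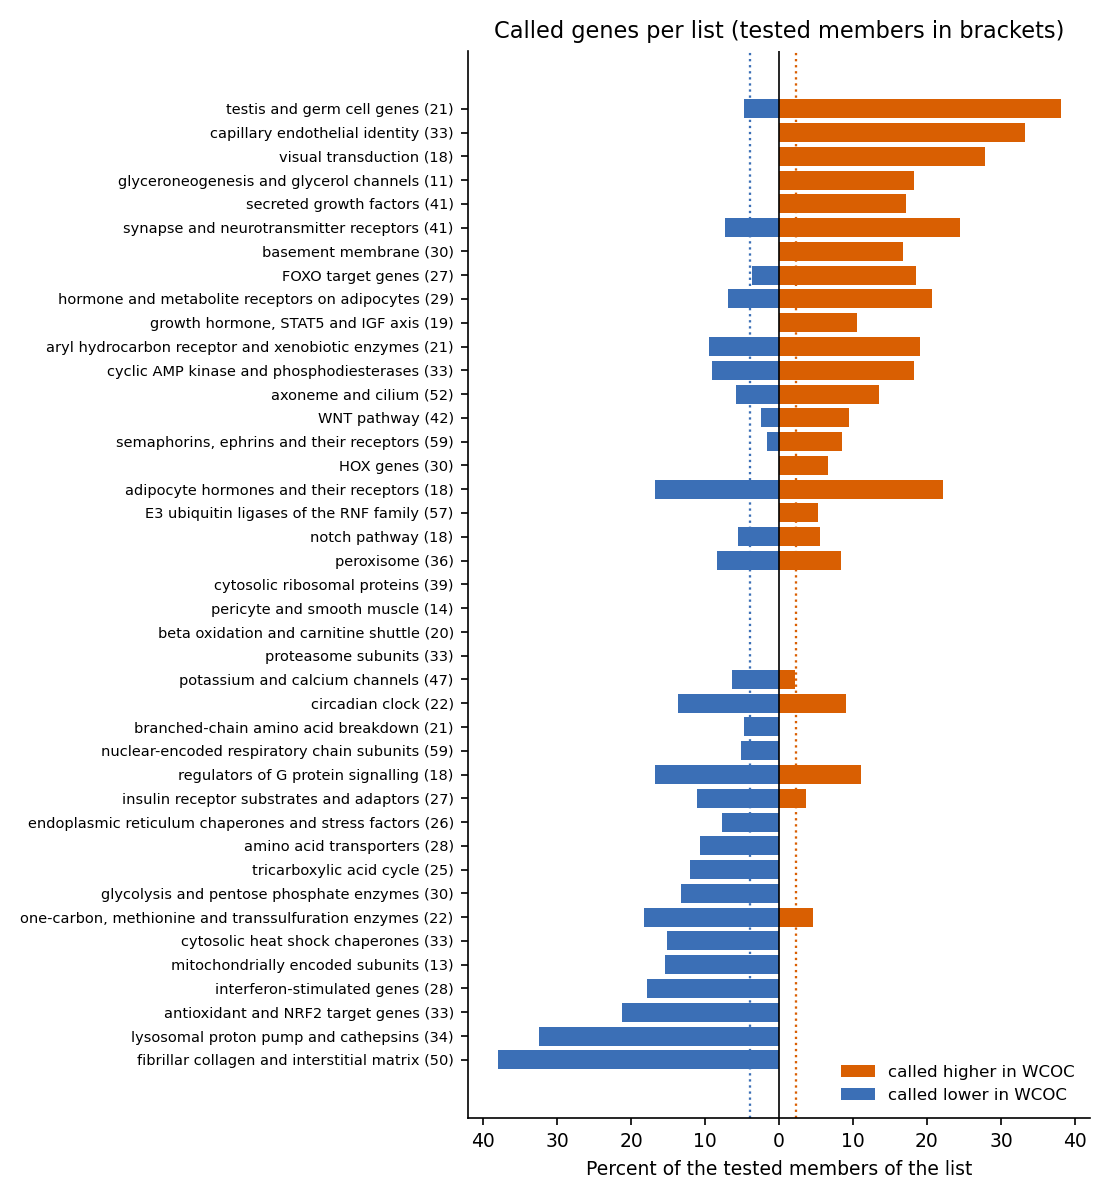
Percent of the tested members of each of 41 gene lists called higher (right) and lower (left) in WCOC, with the number of tested members in brackets and dotted lines at the shares over all tested genes (2.33% and 3.93%). Lists of capillary, testis, retina and synapse genes lie at the top, and those of collagen matrix, lysosome and antioxidant genes at the bottom.

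Promoters of 3 genes are shown first because they carry elements of the signals to which the genes behind the results are known to respond. PCK1 (cyclic AMP), HSPA8 (heat shock factor) and CYP1A1 (aryl hydrocarbon receptor) are read from the Sscrofa11.1 genome with RefSeq's gene starts, 5′ to 3′ on the strand of the gene and up to the base before the start. Capitals mark the motif.
PCK1, chr17:57930407-57930506, plus strand: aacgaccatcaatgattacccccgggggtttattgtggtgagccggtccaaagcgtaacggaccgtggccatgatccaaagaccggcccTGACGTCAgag
HSPA8, chr9:49986761-49987010, minus strand: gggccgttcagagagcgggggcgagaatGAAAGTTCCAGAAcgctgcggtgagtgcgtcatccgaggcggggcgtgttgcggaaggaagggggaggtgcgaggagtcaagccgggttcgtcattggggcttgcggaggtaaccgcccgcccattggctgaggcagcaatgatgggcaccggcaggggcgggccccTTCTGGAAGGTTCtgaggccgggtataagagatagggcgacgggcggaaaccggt
CYP1A1, chr7:58802787-58802886, plus strand: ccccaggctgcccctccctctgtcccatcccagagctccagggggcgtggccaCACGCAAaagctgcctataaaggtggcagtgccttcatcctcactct
The motifs were searched on both strands from 250 bases before to 50 bases after the start of 20641 protein-coding genes. The cyclic AMP response element TGACGTCA begins 11 bases before the annotated start of PCK1 and occurs in 2.17% of these promoters. The heat shock element, searched as GAA, TTC and GAA in this order with 2 bases of any kind between them, occurs in 0.368%, and that of HSPA8 holds it in both orientations, 222 and 55 bases before the start. Of the other chaperone promoters searched, that of DNAJA1 holds it 26 bases after the start and that of HSPB1 not at all. The core of the xenobiotic response element, TNGCGTG, occurs in 5.55% and lies on the minus strand 47 bases before the start of CYP1A1. These matches are descriptions of the letters and say nothing of binding in these pigs.

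PCK1 encodes the cytosolic phosphoenolpyruvate carboxykinase, the step that lets an adipocyte make glycerol phosphate from pyruvate (glyceroneogenesis) and so re-esterify fatty acids. The gene lies on chromosome 17 from 57930507 to 57936523. Its levels were 49.1, 71.2, 65.5, 51.8 and 79.3 CPM in C and 311, 138, 319, 149 and 426 CPM in WCOC. The lowest WCOC pig stood above the highest C pig, and WCOC 2 and WCOC 4 lay far below the other WCOC pigs. The rise was 4.23-fold (log2FC 2.08 ± 0.39 (SE), adjusted p = 0.00568) and was called in all 10 fits that left out 1 library. On flow cell A alone the adjusted p was 0.0131.

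Of the 11 tested genes of glyceroneogenesis and glycerol transport, PCK1 and AQP3 rose and none was called lower. AQP3, a water channel that also passes glycerol, had 65.2 to 131 CPM in C and 121 to 230 in WCOC (log2FC 1.18 ± 0.29, adjusted p = 0.0221). C 5, at 131 CPM, was the C library inside the WCOC range. The call of AQP3 was lost without C 3 or WCOC 1. The enzymes beside PCK1 in the same route did not pass: log2FC was 0.02 for GPD1, which makes glycerol phosphate, -0.37 for GPD2 and -0.64 for PCK2, the mitochondrial carboxykinase. PDK4, which restrains pyruvate oxidation, spanned 13.8 to 104 CPM in WCOC and 15.2 to 34.7 in C (log2FC 0.84, adjusted p = 0.251). AQP9, a glycerol channel, had 2.77 to 14.7 CPM in C and 1.21 to 3.97 in WCOC (log2FC -1.57 ± 0.49, adjusted p = 0.0528). It did not pass, but was called lower by DESeq2, with at least 10 counts required in every library, and without C 1, C 2, C 4 or WCOC 2. Its highest values were in C 3 (9.56 CPM) and C 5 (14.7 CPM), with 2.77 to 3.37 in the other C libraries. Without both C 3 and C 5 it was not called. The list median was -0.04.

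**Figure D3:**
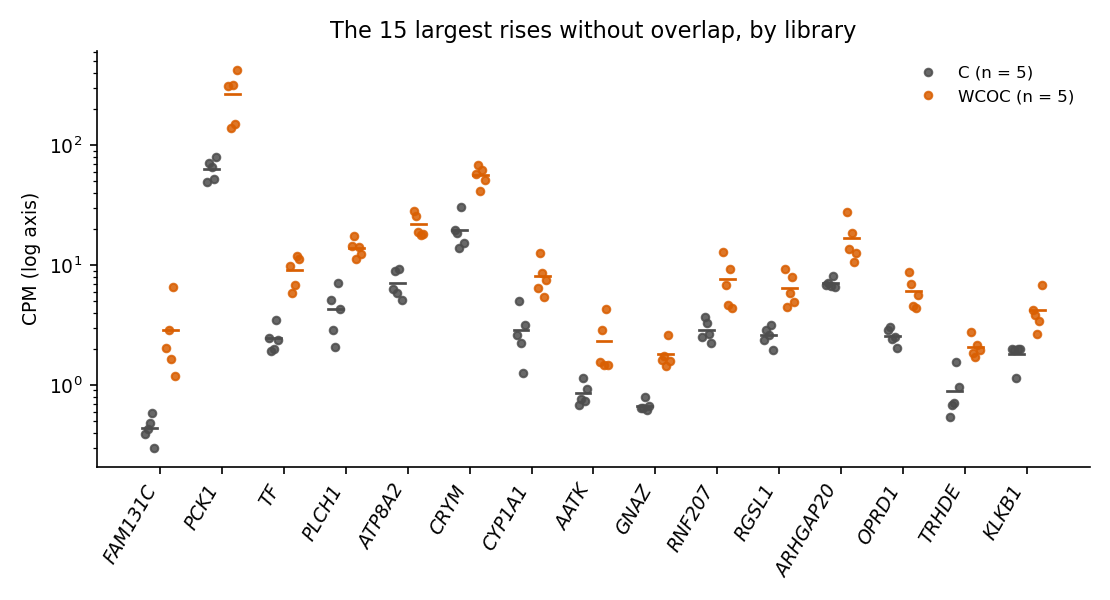
CPM (log axis) of the 15 called genes with the largest rise among those whose diets do not overlap and whose mean is at least 1 CPM, in each of the 5 C and 5 WCOC libraries, with a bar at the mean. PCK1, CRYM and ATP8A2 lie highest, and in each gene the lowest WCOC library is above the highest C library.

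Among all called genes the largest rise was 4.37 on the log2 scale. In the ranking of called genes with a symbol, no overlap and a mean of at least 1 CPM, FAM131C came first. It is a gene of little known function on chromosome 6. Its values were 0.298 to 0.584 CPM in C and 2.03, 2.85, 1.66, 6.51 and 1.18 CPM in WCOC (log2FC 2.69 ± 0.56, adjusted p = 0.00981). It is a low transcript, with 8 to 15 counts per C library and 40 to 205 per WCOC library. TF encodes transferrin, the iron carrier of plasma. It had 2.45, 1.92, 2.01, 3.51 and 2.39 CPM in C and 9.78, 5.84, 6.82, 11.9 and 11.2 CPM in WCOC (log2FC 1.89 ± 0.28, adjusted p = 0.00133).

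CRYM encodes a cytosolic protein that binds thyroid hormone. It stood at 19.5, 18.6, 14, 30.7 and 15.3 CPM in C and at 57.4, 68.3, 41.7, 62.3 and 51.6 CPM in WCOC (log2FC 1.52 ± 0.24, adjusted p = 0.00185). ATP8A2, a flippase that moves aminophospholipids across membranes, had 5.10 to 9.19 CPM in C and 17.7 to 28.4 in WCOC (log2FC 1.62 ± 0.23, adjusted p = 0.00119). PLCH1, a phospholipase C, had 2.07 to 7.13 and 11.3 to 17.4 CPM (log2FC 1.69 ± 0.30, adjusted p = 0.00448). These 5 genes were called in every fit with 1 library left out.

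Further down the same ranking came AATK (log2FC 1.44), GNAZ (1.41), RNF207 (1.40), RGSL1 (1.32), ARHGAP20 (1.23), OPRD1 (1.23), TRHDE (1.22) and KLKB1 (1.21). TRHDE, an ectoenzyme that breaks down thyrotropin-releasing hormone, kept its call in 3 of the 10 fits, while the other 7 kept it in all. KLKB1 encodes plasma prekallikrein, and RNF207, RGSL1 and GNAZ return below with their lists. The spans of AATK, GNAZ, RNF207, RGSL1, OPRD1 and TRHDE overlap other RefSeq genes, and since the strand setting of the counting was not stated, their values are uncertain. In all, 69 of the 209 genes named in the text overlap another RefSeq gene and are uncertain in this way, among them PDK4, PRKAR2B, PDE2A, CRIM1, HGF, BHLHE40, NR1D1, HAO2, SYT1, NTN1 and MDH2, and S1PR3 and SHC3, which overlap each other. A further 14, including ATP8A2, BMAL1, CYP2S1 and CYP1B1, had no RefSeq position under their symbol, so their overlap with neighbours was not checked.

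Among called genes with a symbol and no overlap, the 10 rises of highest mean CPM were ADIPOQ, ITIH5, SDR16C5, LIMCH1, PRKAR2B, TLN2, IGFBP4, ADGRF5, FMO1 and CYP4V2. ITIH5, which binds hyaluronan in the matrix and is highly expressed by adipocytes, had 576, 413, 545, 504 and 525 CPM in C and 1352, 931, 801, 1323 and 950 CPM in WCOC. Its values did not overlap and the mean was 2.09-fold higher by the fit (log2FC 1.06 ± 0.17, adjusted p = 0.00178). CYP4V2, an omega-hydroxylase of fatty acids, had 112 to 190 CPM in C and 202 to 328 in WCOC (log2FC 0.78 ± 0.18, adjusted p = 0.0159). SDR16C5, a retinol dehydrogenase (log2FC 0.68), LIMCH1, which binds actin and myosin (0.59), and TLN2, a talin that links integrins to actin (0.60), had smaller rises, called in 2, 3 and 6 of the 10 fits with 1 library left out.

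Among 18 tested adipocyte hormones and their receptors, 4 were called higher and 3 lower, with a median log2FC of -0.14. ADIPOQ, adiponectin, had 4058, 3094, 3087, 4128 and 4089 CPM in C and 8028, 5628, 5242, 4386 and 5960 CPM in WCOC. The lowest WCOC pig (WCOC 4) was close to the highest C pig, and WCOC 1 was the highest of all (log2FC 0.66 ± 0.17, adjusted p = 0.0281). Its call was lost without C 2, C 3, WCOC 1 or WCOC 5, and on flow cell A alone the adjusted p was 0.0795. LEPR, the leptin receptor, rose from 0.232 to 1.20 CPM in C to 0.762 to 3.97 in WCOC (log2FC 2.13 ± 0.52, adjusted p = 0.0208), at 5 to 28 counts per C library, and the call was lost without C 3, C 5 or WCOC 1. STC1 (log2FC 0.70), a secreted glycoprotein, and NMB (1.06), the peptide neuromedin B, were the other rises. The falls were ANGPTL8 (-2.69), a hormone that blocks lipoprotein lipase and is known to respond to feeding, C1QTNF3 (-1.34), an adiponectin paralogue, and CMKLR1 (-0.89), the chemerin receptor. No gene of this list was called in either direction without C 3 or without WCOC 1. There were 2 rises without C 2, C 4, C 5 or WCOC 5, 1 fall without C 2, and no fall without WCOC 3 or WCOC 4.

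Of the receptors for hormones and metabolites on adipocytes, 6 of 29 tested were called higher (20.7%) and 2 lower (6.90%), with a median log2FC of 0.32. OPRD1, the delta opioid receptor, had 2.89, 3.03, 2.42, 2.49 and 2.05 CPM in C and 8.71, 6.93, 4.57, 4.38 and 5.63 CPM in WCOC (log2FC 1.23 ± 0.19, adjusted p = 0.00176). PTGER4, a prostaglandin E receptor, had 9.81 to 17.5 and 18.7 to 24.5 CPM (log2FC 0.72 ± 0.16, adjusted p = 0.0159), and its relative PTGER2 rose by a like amount (0.76). ADRB1, the beta-1 adrenergic receptor, had 1.94 to 5.47 CPM in C and 4.49, 5.78, 6.31 and 7.50 CPM in 4 WCOC libraries, with 18.7 in WCOC 1 (log2FC 1.39 ± 0.39, adjusted p = 0.0366). FFAR4, a receptor for long-chain fatty acids, rose by 0.59 and GPR153, an orphan receptor, by 0.92 on the log2 scale. Those that fell were TBXA2R, the thromboxane receptor (-1.08), and S1PR3, a receptor for sphingosine phosphate (-1.12). The number of rises was 2 without WCOC 1, 3 without C 1 or C 3, and 5 on flow cell A alone. Without both C 1 and C 3 there was 1 rise and no fall. Without both C 3 and C 5 there were 2 rises and 1 fall. Of the falls 1 was called without C 2, C 3, C 4, C 5, WCOC 1, WCOC 3 or WCOC 4.

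Downstream of such receptors, 6 of 33 tested genes of the cyclic AMP route were called higher (18.2%) and 3 lower (9.09%), with a median of 0.16. PRKAR2B, the regulatory subunit of protein kinase A that predominates in fat, had 232, 247, 167, 242 and 255 CPM in C and 520, 352, 349, 277 and 463 CPM in WCOC. The diets did not overlap (log2FC 0.78 ± 0.17, adjusted p = 0.0145). AKAP12, which anchors that kinase at the membrane, had 91.3 to 114 CPM in C and 157 to 257 in WCOC (log2FC 0.92 ± 0.14, adjusted p = 0.00139). PDE2A, a phosphodiesterase that cyclic GMP switches on, had 56.2 to 72.3 and 91.2 to 116 CPM (log2FC 0.66 ± 0.10, adjusted p = 0.00133). GNAZ, an inhibitory G protein subunit, had 0.623 to 0.796 and 1.44 to 2.60 CPM (log2FC 1.41 ± 0.24, adjusted p = 0.00352), and the kinase inhibitor PKIB (0.79) and the anchor protein AKAP3 (0.70) also rose. All 4 of these genes given with their CPM were called in every fit with 1 library left out. The falls, ADCY8 (-1.14), CREB5 (-0.68) and AKAP5 (-0.66), were not called without C 3 or without WCOC 1, and 1 of them was called without C 5, WCOC 3, WCOC 4 or WCOC 5. Regulators of G protein signalling split, with RGSL1 (log2FC 1.32) and RGS22 (0.67) higher and RGS1 (-2.66), RGS10 (-1.92) and RGS13 (-2.72) lower among 18 tested. RGS1 and RGS10 are known mostly from leukocytes. Of the 3 falls 1 was called without C 3, C 5, WCOC 1 or WCOC 4. The list had 1 rise without C 1, C 3, C 4, C 5, WCOC 1, WCOC 3 or WCOC 4, and 4 without C 2.

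Of 33 tested genes of capillary endothelium, 11 were called higher (33.3%, against 2.33% of all genes) and none lower, 31 had a positive log2FC, and the median was 0.46. Their summed level was 3789, 3584, 3163, 2818 and 3245 CPM in C and 4726, 3427, 4498, 5167 and 4433 CPM in WCOC, so that WCOC 2 alone lay within the C range. NOS3, the endothelial nitric oxide synthase, had 54.4, 50.4, 45.4, 44.1 and 52.0 CPM in C and 94.8, 66.1, 75.8, 105 and 82.6 CPM in WCOC (log2FC 0.78 ± 0.13, adjusted p = 0.00264). GPIHBP1, which holds lipoprotein lipase on the capillary wall, had 45.7 to 66.8 and 69.4 to 120 CPM (log2FC 0.84 ± 0.19, adjusted p = 0.0162). ADGRF5, an adhesion receptor, had 140 to 216 and 225 to 354 CPM (log2FC 0.68 ± 0.14, adjusted p = 0.00859). In all 3 genes the diets were separate.

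The other called members were CLDN5, a tight junction protein (log2FC 0.75), USHBP1 (0.71), ARAP3 (0.70), the flow-responsive factor KLF2 (0.69), CA4, a carbonic anhydrase on the capillary surface (0.66), the transcription factor ERG (0.64), JCAD (0.60) and MMRN2 (0.59). The number of called members was 7 without C 3, C 4, WCOC 1 or WCOC 4, and 13 at most. It was 8 on flow cell A alone, 9 without both C 1 and C 3, and 2 without both C 3 and C 5. The list median kept its sign in all alternatives, between 0.36 and 0.52. None of 14 tested genes of pericytes and smooth muscle, the cells around these vessels, was called, and their median was -0.06. In the notch pathway, which acts in sprouting vessels, DLL1 rose (0.59) and HES4 fell (-0.71) among 18 tested. DLL1 was called in 1 of the 10 fits with a library left out and not on flow cell A, and HES4 was lost without WCOC 1.

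The basement membrane, the sheet of laminin and type IV collagen under endothelium and around adipocytes, had 5 of 30 tested genes called higher (16.7%), none lower, and a median log2FC of 0.27. PAPLN, papilin, had 17.6 to 26.1 CPM in C and 31.7 to 57.5 in WCOC (log2FC 1.03 ± 0.16, adjusted p = 0.00176). SMOC1, a calcium-binding matricellular protein, had 29.2 to 59.0 and 57.6 to 117 CPM (log2FC 0.91 ± 0.23, adjusted p = 0.0247). SPOCK2 (0.66) and LAMA5 (0.59) also rose. The count was 1 without C 3 and 2 without WCOC 1, 3 without C 4, C 5 or WCOC 4, and 1 on flow cell A alone.

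Of 50 tested genes of fibrillar collagen and its companions, 19 were called lower (38.0%, against 3.93% of all genes), none higher, and the median was -0.68. LUM, lumican, which spaces collagen fibrils, had 352, 341, 513, 348 and 425 CPM in C and 119, 289, 135, 164 and 173 CPM in WCOC. The diets were separate, with WCOC 2 the nearest to C (log2FC -1.17 ± 0.23, adjusted p = 0.00808). FN1, fibronectin, had 581, 812, 1650, 399 and 1383 CPM in C and 272, 483, 309, 252 and 223 CPM in WCOC (log2FC -1.65 ± 0.38, adjusted p = 0.0156), and its highest values were in C 3 and C 5. COL1A1, the main chain of type I collagen, had 5643 to 10487 and 1967 to 6071 CPM (log2FC -0.93 ± 0.28, adjusted p = 0.0483) and was called in 1 of the 10 fits with a library left out. TNC (-1.73), CTHRC1 (-1.39), LTBP2 (-1.34), COL14A1 (-1.08) and POSTN (-1.0), proteins of growing or remodelling matrix, also fell.

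The count of falls was 7 without C 3 or WCOC 1, 9 without WCOC 4, 10 without C 5 or WCOC 3 and 12 without WCOC 5, and at most 27. It was 6 on flow cell A alone, 2 without both C 1 and C 3, and 0 without both C 3 and C 5, while the list median stayed between -0.81 and -0.55. C 3 also held the highest summed level of the list. The fibroblast markers had 2 of 11 tested called lower, LUM and DPT, both members of the matrix list too, with a median of -0.51.

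**Figure D4:**
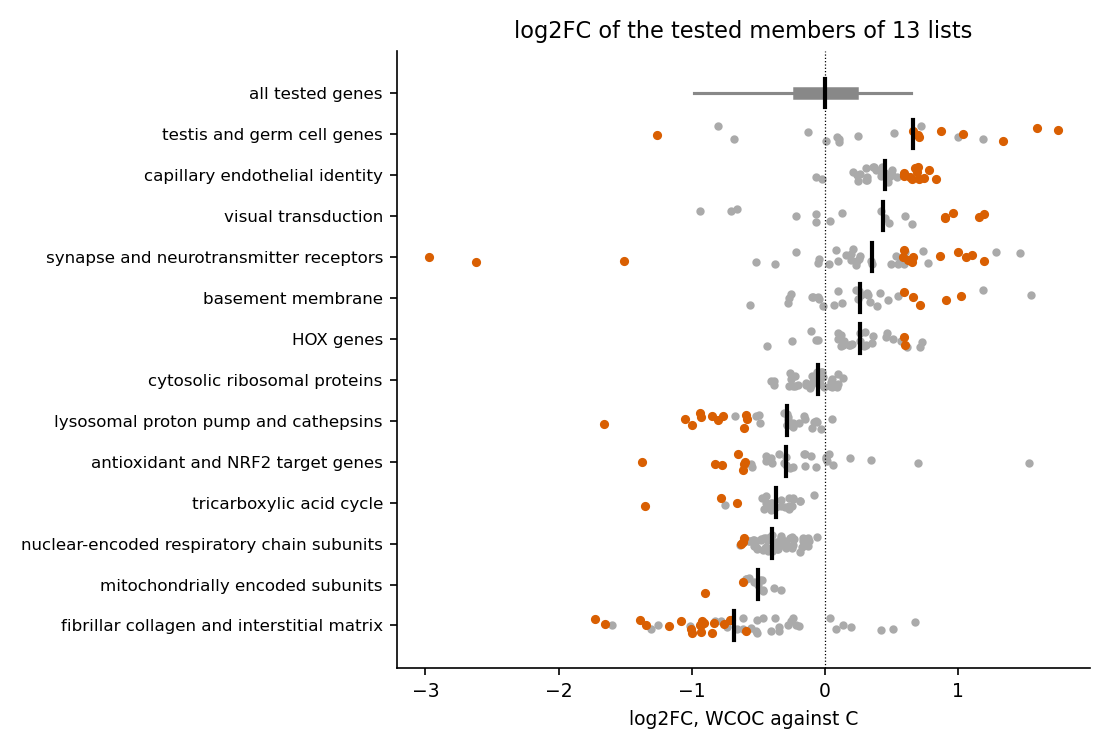
The log2FC of each tested member of 13 lists (points, orange where called, black bar at the median) beside all tested genes (thin line from the 5th to the 95th percentile, thick line from the 25th to the 75th). Endothelial members lie almost all to the right of 0, and all members of the tricarboxylic acid cycle and of both respiratory chain lists to the left.

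The list of secreted growth factors also holds partners at the cell surface, RGMA and CRIM1 among them. Of its 41 tested genes 7 were higher (17.1%) and none lower, with a median log2FC of 0.17. RGMA, a membrane-bound co-receptor of bone morphogenetic proteins, had 61.0, 84.8, 66.5, 86.0 and 69.4 CPM in C and 115, 128, 118, 128 and 116 CPM in WCOC (log2FC 0.72 ± 0.12, adjusted p = 0.00267). CRIM1, which tethers such proteins at the cell surface, had 129 to 165 and 199 to 298 CPM (log2FC 0.75 ± 0.15, adjusted p = 0.00973). HGF, hepatocyte growth factor, which acts on endothelium and epithelia, had 11.5 to 20.3 and 15.3 to 42.8 CPM (log2FC 0.99 ± 0.23, adjusted p = 0.0176), and its call was lost without C 3 or WCOC 1. NTF3, neurotrophin 3 (1.00), STC1 (0.70), BMP6 (0.64) and ADM, the vasodilator adrenomedullin (0.62), were the others. The count was 3 without C 3 or WCOC 1, 4 without WCOC 4, and 3 on flow cell A.

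In the growth hormone and IGF axis 2 of 19 tested genes were called higher and none lower (median 0.33). IGFBP4, which binds IGF and holds it from its receptor, had 213, 179, 180, 218 and 147 CPM in C and 516, 338, 259, 461 and 358 CPM in WCOC (log2FC 1.04 ± 0.19, adjusted p = 0.00572), with no overlap and a call in all 10 fits. STC1 was the other, and the list had 1 rise without C 1, C 3, WCOC 1, WCOC 3 or WCOC 5 and none without both C 3 and C 5. Known targets of FOXO factors, which act when insulin signalling is low, had 5 of 27 called higher (18.5%) and SOD2 lower, with a median of 0.29. Beside PCK1 these were DEPP1 (log2FC 0.82), KLF2 (0.69), ARRDC3, an arrestin that lowers adrenergic signalling (0.68), and CCNG2 (0.62), a cyclin of resting cells. The number of rises ranged from 1 (without C 3 or WCOC 1) to 5, and was 2 without C 1, C 2, C 4, C 5 or WCOC 4 and 3 without WCOC 3 or WCOC 5. It was 1 on flow cell A. Among 27 insulin signalling adaptors GRB14, an inhibitor of the insulin receptor, rose (1.27), and ENPP1 (-1.28), TRIB3 (-1.07) and SHC3 (-1.95) fell. The first 2 of these 3 are also known to restrain insulin signalling. GRB14 lost its call without C 2, C 3, C 4, WCOC 1 or WCOC 5 and on flow cell A, and there was 1 fall without WCOC 1. Without both C 1 and C 3 there were 0 rises and 2 falls, and without both C 3 and C 5 there were 0 rises and 1 fall. ENPP1 had 143 CPM in C 3 and 200 in C 5, with 54.9 to 81.9 in the other C libraries and 38.6 to 56.7 in WCOC.

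The circadian clock runs on a loop in which BMAL1 and CLOCK drive genes whose products shut them off, REV-ERB alpha (NR1D1) among them. Of 22 tested clock genes 2 rose and 3 fell, and BMAL1 and NR1D1 moved in opposite directions. BMAL1 had 14.7, 19.9, 12.5, 12.1 and 11.6 CPM in C and 20.2, 22.2, 36.8, 23.9 and 27.6 CPM in WCOC (log2FC 0.89 ± 0.20, adjusted p = 0.0143). NR1D1 had 35.8, 24.4, 22.4, 20.4 and 22.4 CPM in C and 16.9, 12.4, 9.76, 11 and 13.5 CPM in WCOC (log2FC -0.98 ± 0.22, adjusted p = 0.0143). Neither gene overlapped between the diets, and the WCOC pig highest in BMAL1, WCOC 3, was the lowest in NR1D1.

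BHLHE40, another repressor of the loop that also responds to metabolic signals, had 122, 89.6, 109, 67.4 and 84.3 CPM in C and 34.3, 41.8, 46.5, 44.0 and 59.8 CPM in WCOC (log2FC -1.06 ± 0.21, adjusted p = 0.00760). NFIL3, a repressor of D-box genes, rose from 27.4 to 36.9 CPM in C to 38.8 to 58.4 in WCOC (log2FC 0.59 ± 0.13, adjusted p = 0.0145), and TIMELESS, which also works at replication forks, fell (-0.81). Other core members did not pass: log2FC was -0.02 for CLOCK, 0.30 for CRY1, -0.27 for PER1, -0.30 for PER2, -0.23 for DBP and -0.48 for NR1D2. BMAL1, NR1D1 and BHLHE40 were called in all 10 fits with a library left out, whereas NFIL3 was lost in 5 (without C 1, C 3, WCOC 1, WCOC 3 or WCOC 4) and TIMELESS in 8. On flow cell A alone the adjusted p of BMAL1 was 0.0502. Without both C 1 and C 3 the list had 0 rises and 1 fall. Without both C 3 and C 5 it had 0 rises and 2 falls, so BMAL1 was called in neither of these fits. The RefSeq span of NR1D1 overlaps that of THRA on the opposite strand. A search of the same promoter windows used TNGGTCA, with any base at N, a loose form of the core bound by ROR and REV-ERB factors. It was found once in that of BMAL1 (in RefSeq ARNTL), 180 bases before its start. The match reads TTGGTCA, with T rather than A or G before GGTCA, so it is no clear site of these factors. This loose form is common, in 10.3% of promoters, and was not found in that of NFIL3. The E-box CACGTG, in 7.64% of promoters, was found in neither that of NR1D1 nor that of BHLHE40.

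**Figure D5:**
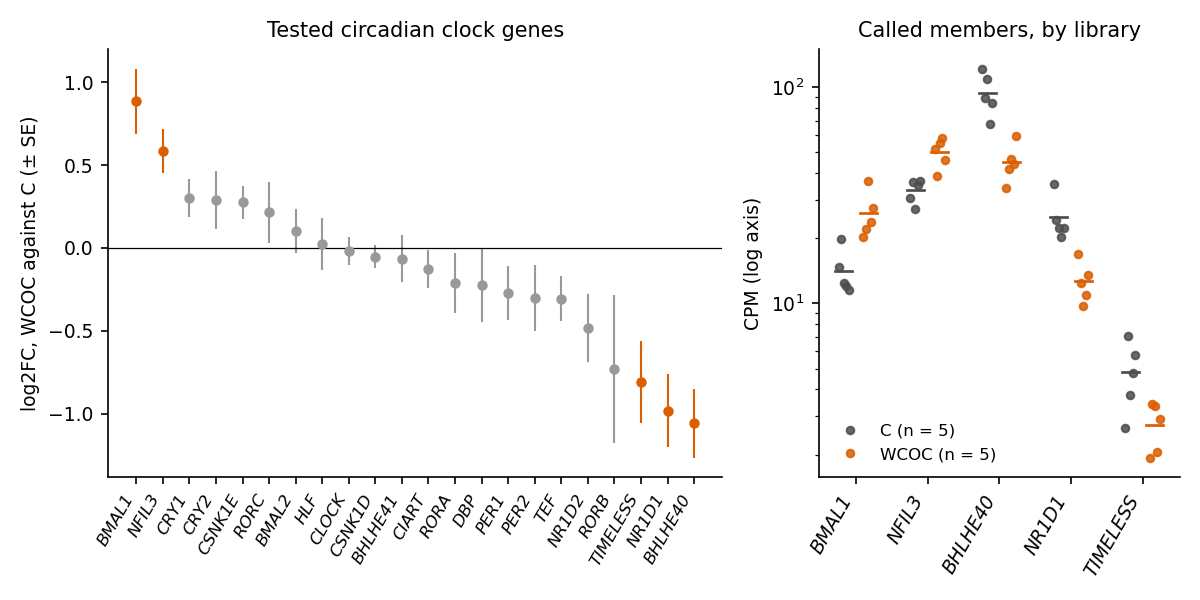
Left, log2FC ± SE of the 22 tested circadian clock genes, WCOC against C, with called genes in orange. Right, CPM (log axis) of the 5 called genes in each library, with a bar at the mean. BMAL1 and NFIL3 are separate and higher in WCOC, BHLHE40 and NR1D1 separate and lower, and TIMELESS overlaps.

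Enzymes that handle foreign compounds changed in both directions, with 4 of 21 tested higher (19%) and 2 lower (9.52%), and a median of 0.01. CYP1A1, the best known target of the aryl hydrocarbon receptor and the gene whose promoter is shown above, had 2.60, 5.00, 2.23, 1.25 and 3.18 CPM in C and 6.38, 12.5, 8.55, 5.46 and 7.55 CPM in WCOC (log2FC 1.50 ± 0.36, adjusted p = 0.0199). It was lost only without C 3. CYP2S1 had 56.9 to 98.5 and 129 to 192 CPM (log2FC 0.95 ± 0.17, adjusted p = 0.00525), FMO1, a flavin monooxygenase, 111 to 227 and 252 to 292 CPM (log2FC 0.74 ± 0.16, adjusted p = 0.0141). HSD11B1, which makes active cortisol in fat, rose by 0.82 on the log2 scale. CYP1B1, in other tissues induced together with CYP1A1, fell: it had 3.87 to 15.4 CPM in C and 2.89 to 4.07 in WCOC (log2FC -1.42 ± 0.28, adjusted p = 0.00693).

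The peroxisome list was split evenly, with 3 of 36 tested higher and 3 lower (8.33% each) and a median of 0.05. The rises were ABCD2, which imports very long-chain and unsaturated acyl-CoA (25.9 to 65.1 CPM in C, 60.2 to 116 in WCOC, log2FC 1.09 ± 0.26, adjusted p = 0.0175), HAO2, an oxidase of long-chain hydroxy acids (5.05 to 7.48 and 9.77 to 17.1 CPM, log2FC 0.96 ± 0.17, adjusted p = 0.00441), and PEX11A, a factor of peroxisome division (log2FC 0.87). ECI2 (-0.61) and ACOXL (-1.57) were among the falls. None of the 3 falls was called without C 3, C 4 or WCOC 1. PEX11A was called in 3 of the 10 fits, ABCD2 and HAO2 in all.

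Several lists of genes known from nerve, retina, testis and cilia held shares of rises above the background of 2.33%. Of their matched genes 41 of 60 (synapse), 21 of 38 (testis), 18 of 31 (visual) and 52 of 62 (cilium) were tested. Summed over matched genes, the synapse list had 406 to 448 CPM in C and 552 to 652 in WCOC. The sums of the testis, visual and cilium lists overlapped between the diets. Their medians were 198, 580 and 782 CPM in C and 218, 523 and 731 in WCOC. Among synapse genes 10 of 41 tested were higher (24.4%) and 3 lower (7.32%), with a median of 0.35. GRIA2, a glutamate receptor subunit, had 21.8, 30.3, 22.9, 24.8 and 34.0 CPM in C and 62.4, 58.2, 70.0, 40.1 and 58.5 CPM in WCOC (log2FC 1.11 ± 0.19, adjusted p = 0.00273). SYT1, a calcium sensor of vesicle release, had 0.974 to 2.18 and 2.77 to 4.70 CPM (log2FC 1.20 ± 0.26, adjusted p = 0.0124). UNC13B (0.66) and SYBU (0.60) also rose, while NPTX1 fell from 3.73 to 21.1 CPM in C to 0.881 to 2.49 in WCOC (log2FC -2.62 ± 0.54, adjusted p = 0.00912) and STXBP5L by 2.97 on the log2 scale. The number of rises was 4 without WCOC 4, 5 without C 3, WCOC 1 or WCOC 3, 6 without C 1, and 5 on flow cell A. None of 9 tested Schwann cell and nerve markers was called, and the list sum was 424 to 571 CPM in C and 434 to 532 in WCOC.

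Of 21 tested testis and germ cell genes 8 were higher (38.1%) and 1 lower, with a median log2FC of 0.66, the highest of the 41 lists. Leading them was CTCFL, a germ line relative of the chromatin protein CTCF, with 12.7, 29.7, 17.5, 12 and 25.9 CPM in C and 103, 69.8, 56.8, 24.2 and 76.6 CPM in WCOC. WCOC 4 lay within the C range (log2FC 1.75 ± 0.46, adjusted p = 0.0293), and the call was lost without C 1, C 3, C 4, WCOC 1 or WCOC 5. TSKS (1.60), CATSPERD (1.34), ADAM2 (1.04), IHO1 (0.88), LYPD4 (0.71), AKAP3 (0.70) and SPATA6L (0.66) were the other rises. MEI4, a meiosis gene, fell from 43.5 to 92.7 CPM in C to 16.6 to 38.4 in WCOC (log2FC -1.26 ± 0.30, adjusted p = 0.0188). The count of rises was 2 without C 3, 3 without WCOC 1, 5 without C 1 or C 5, and 2 on flow cell A.

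Among 18 tested genes of visual transduction 5 rose and none fell (27.8%, median 0.44): CDHR1 (log2FC 1.20), GUCY2D (1.16), WHRN (0.96), BCO1, which cleaves beta-carotene to retinal (0.91), and PDE6C (0.90). The count was 1 without C 3 or on flow cell A, 2 without C 4, WCOC 1 or WCOC 5, and 3 without C 2, C 5 or WCOC 3. The spans of GUCY2D and PDE6C overlap CNTROB and RBP4. Among 52 axoneme and cilium genes 7 rose (13.5%) and 3 fell (5.77%), with a median of 0.11. The axonemal dyneins DNAH10 (2.48 to 4.71 CPM in C, 5.02 to 7.04 in WCOC, log2FC 0.77 ± 0.16, adjusted p = 0.0110) and DNAH2 (1.08), and the adenylate kinases AK7 (0.99) and AK8 (0.71), were among the rises, and ODAD4 (-1.38) and SPAG16 (-1.05) among the falls. The number of rises was 3 without C 3 or WCOC 1 and 4 without WCOC 4.

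HOXB7 and HOXB4 rose (both 0.60) among 30 tested HOX genes, of which 25 had a positive log2FC (median 0.27), and both calls were lost without C 3. Of the 2, 1 was called without C 2, C 4, WCOC 4 or WCOC 5, and 5 HOX genes without WCOC 2. In the WNT pathway PORCN, which acylates WNT proteins (0.73), CCDC88C (0.61), FZD8 (0.60) and VANGL2 (0.60) rose and WNT2 fell (-2.26) among 42 tested, and no rise was called without C 3, 1 without WCOC 1, WCOC 3 or WCOC 5, and 2 without C 1, C 4, C 5 or WCOC 4. No fall was called without C 3, C 5, WCOC 1 or WCOC 3, 2 without C 1 and 4 without WCOC 2. Semaphorins, ephrins and their kin had 5 rises and 1 fall among 59 tested: PLXNB3 (1.09), RGMA (0.72), EPHA4 (0.68), EPHB1 (0.62) and NTN5 (0.60) were higher, while NTN1, netrin 1, was lower (104 to 158 CPM in C, 48.1 to 96.1 in WCOC, log2FC -0.83 ± 0.21, adjusted p = 0.0248). Their rises numbered 1 without C 3, 2 without WCOC 4, 3 without C 4 or WCOC 1 and 8 without WCOC 2, and NTN1 lost its call without C 1, WCOC 1, WCOC 4 or WCOC 5. RNF207 (1.40), RNF227 (0.74) and RNF125 (0.61) were the called members among 57 RING-finger ubiquitin ligases. Of 47 potassium and calcium channels KCNIP1 rose (0.70), and KCNK13 (-1.29), KCNH3 (-1.25) and KCNQ1 (-1.17) fell, 1 of them without WCOC 1 or WCOC 5. KIT, the receptor of stem cell factor, was the single call on the mast cell list (5.96 to 8.98 CPM in C, 11.2 to 18 in WCOC, log2FC 0.87 ± 0.17, adjusted p = 0.00680), on which MS4A2, HDC, HPGDS and FCER1A had log2FC of -0.67, -1.04, -0.96 and -0.90 and did not pass.

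All 25 tested genes of the tricarboxylic acid cycle and pyruvate oxidation had a negative log2FC (median -0.36), and 3 were called (12%, against 3.93% of all genes). PDHB, a subunit of pyruvate dehydrogenase, had 357, 535, 435, 604 and 353 CPM in C and 104, 227, 207, 115 and 245 CPM in WCOC, without overlap (log2FC -1.35 ± 0.26, adjusted p = 0.00678). MDH2, malate dehydrogenase, had 240 to 305 and 112 to 197 CPM (log2FC -0.78 ± 0.18, adjusted p = 0.0173). Without WCOC 1 the count was 1, and without WCOC 3 it was 5. Without both C 1 and C 3, the libraries richest in muscle transcripts, it was 1 and the median was -0.37.

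The 59 tested nuclear-encoded subunits of the respiratory chain also lay below 0 without exception (median -0.40), but 3 passed both limits (5.08%): ATP5F1A (-0.61), UQCRC1 (-0.63) and UQCR10 (-0.62). By adjusted p alone 13 passed, all lower. The count of 3 was 0 without C 4, WCOC 1 or WCOC 4, 1 without C 1, 5 without C 2 or WCOC 3, 7 without C 5 and 14 without WCOC 2. Without both C 1 and C 3 it was 0 and the median was -0.33. The 13 subunits encoded in the mitochondrial genome had a median of -0.50. COX1, of cytochrome oxidase, had 42847, 29170, 35032, 39142 and 22777 CPM in C and 14695, 24916, 21151, 12645 and 17002 CPM in WCOC (log2FC -0.90 ± 0.22, adjusted p = 0.0188). C 5 lay within the WCOC range, and the call was lost without WCOC 1. ATP6 was the other call (-0.61). The count of this list was 0 without WCOC 1, 7 without WCOC 2, 8 without C 5, and 1 without any 1 of the others except WCOC 3. It was also 0 without both C 1 and C 3, with a median of -0.45.

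Glycolysis and the pentose phosphate route had 4 of 30 tested genes called lower (13.3%), none higher, and a median of -0.53. TIGAR (-0.69), which lowers the flow through glycolysis, PGAM1 (-0.65) and HK2, hexokinase 2 (-0.63), were among them. The count was 1 without WCOC 4, 2 without WCOC 1, 8 without WCOC 2, and 7 on flow cell A. Without both C 1 and C 3, the libraries richest in muscle transcripts, it was 1 and the median was -0.28.

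Of 33 tested cytosolic chaperones 5 were lower (15.2%) and none higher, with a median of -0.29. HSPA8, the constitutive HSP70 whose promoter is printed above, had 616, 577, 734, 704 and 746 CPM in C and 299, 316, 410, 507 and 587 CPM in WCOC (log2FC -0.67 ± 0.20, adjusted p = 0.0439). Only WCOC 5 overlapped C, and the call held in 2 of the 10 fits. HSPB1 (-0.86), HSPH1 (-0.67), DNAJA1 (-0.63) and HSPA4L (-0.58) were the others. No chaperone was called without WCOC 1 or WCOC 4, 2 without C 1, C 3 or C 4, and 3 without C 5, WCOC 2 or WCOC 3. Without both C 1 and C 3 none was called, and the median was -0.24. In the endoplasmic reticulum list TRIB3 (-1.07) and ATF5 (-0.76) were called among 26, and 9 passed by adjusted p alone, all lower. None of the 2 was called without WCOC 1 or without both C 1 and C 3, and 1 without WCOC 3 or WCOC 4.

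Antioxidant genes had 7 of 33 tested called lower (21.2%), none higher, and a median of -0.29. TXNRD1, the cytosolic thioredoxin reductase, had 233, 243, 154, 223 and 162 CPM in C and 85.3, 133, 124, 128 and 103 CPM in WCOC (log2FC -0.82 ± 0.19, adjusted p = 0.0153). SOD2, the mitochondrial superoxide dismutase, had 144 to 211 and 107 to 130 CPM (log2FC -0.61 ± 0.14, adjusted p = 0.0162), and PRDX3, a mitochondrial peroxiredoxin, 329 to 473 and 153 to 324 CPM (log2FC -0.60 ± 0.16, adjusted p = 0.0318). All 3 were without overlap. MAFF (-1.37), NNT (-0.77), MAFG (-0.65) and GPX7 (-0.60) completed the 7. The count was 3 without WCOC 5, 4 without C 5, WCOC 1 or WCOC 4, and 4 on flow cell A. It was 2 without both C 1 and C 3 and 1 without both C 3 and C 5, and DESeq2 called 1 member higher. The summed level of the list was not lower in WCOC: it was 5540 to 7570 CPM in C (median 5790) and 5730 to 7120 in WCOC (median 6450).

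Interferon-stimulated genes had 5 of 28 called lower (17.9%), none higher, and a median of -0.27. BST2, tetherin, had 44.7, 23.5, 29.0, 31.0 and 36.7 CPM in C and 21.8, 20.7, 18.6, 20.4 and 19 CPM in WCOC (log2FC -0.72 ± 0.16, adjusted p = 0.0141). CGAS, a sensor of cytosolic DNA (-1.07), was also called in all 10 fits with a library left out, while ISG15 (-0.99), MX2 (-0.95) and MX1 (-0.83) were called in 5, 2 and 4. The count was 3 without C 2 and 2 without C 3, C 5, WCOC 3, WCOC 4 or WCOC 5. It was 1 on flow cell A alone, where the adjusted p of CGAS was 0.0625. Without both C 1 and C 3 it was 2, and without both C 3 and C 5 it was 0, so BST2 and CGAS were not called there. Of 34 lysosomal genes 11 were lower (32.4%), none higher, and the median was -0.28. CTSS, cathepsin S, which antigen-presenting cells use, had 66.6, 78.4, 222, 93.3 and 283 CPM in C and 36.7 to 61.7 in WCOC (log2FC -1.66 ± 0.35, adjusted p = 0.0103), with its highest values in C 3 and C 5, the libraries richest in macrophage transcripts. GRN (-0.94), CTSB (-0.93), CTSH (-1.05), GUSB (-0.99) and the proton pump subunits ATP6V1A and ATP6V1B2 (both -0.59) were among the others. The lysosomal count was 5 without WCOC 1, 6 without C 3, C 5 or WCOC 4, 2 on flow cell A and 1 without both C 3 and C 5.

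SLC6A6, the taurine transporter, had 101, 92.6, 101, 59.3 and 132 CPM in C and 19.8, 45.6, 36.6, 16.4 and 22.9 CPM in WCOC (log2FC -1.78 ± 0.30, adjusted p = 0.00266). SLC7A10 (-1.41) and SLC6A13 (-1.29) also fell among 28 amino acid transporters (10.7%, median -0.25). AHCY, which clears S-adenosylhomocysteine, had 19.1, 16.3, 22.6, 17.5 and 25.3 CPM in C and 7.81 to 11.9 CPM in WCOC (log2FC -1.02 ± 0.14, adjusted p = 0.000922). It was 1 of 4 falls among 22 enzymes of one-carbon and sulfur amino acid metabolism, with TYMS (-1.76), CTH (-0.92) and MTHFD2 (-0.65), while MTHFD2L, a paralogue of the last, rose (0.85). Without WCOC 1 or WCOC 4 there were 2 falls, and MTHFD2L lost its call without C 1, C 3, C 5, WCOC 1 or WCOC 5 and on flow cell A. BCAT1, which starts the breakdown of branched-chain amino acids in the cytosol, fell from 11.4 to 41.3 CPM in C to 4.94 to 9.43 in WCOC (log2FC -1.74 ± 0.35, adjusted p = 0.00861) and was the single call among 21 genes of that route. SLC6A6, AHCY and BCAT1 were called in all 10 fits. BCAT1 was highest in C 3 (30.9 CPM) and C 5 (41.3 CPM), the libraries richest in macrophage transcripts, and was not called without both. In that fit the amino acid transporters had 1 fall and the one-carbon and sulfur amino acid enzymes 2.

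The 8 largest falls were taken from called genes with a symbol, no overlap and a mean of at least 1 CPM. Members of the cell division, lipid synthesis and macrophage lists were left out. Among these falls ST14, a membrane serine protease, dropped from 2.65 to 21.6 CPM in C to 0.588 to 2.13 in WCOC (log2FC -3.17 ± 0.55, adjusted p = 0.00357). STXBP5L (-2.97), MPV17L (-2.82) and ANGPTL8 (-2.69) were others, and PIMREG (-2.94), ASPM (-2.84) and SHCBP1 (-2.77) are known from dividing cells though they were on no list. MPV17L and ANGPTL8 were called in 9 and 5 of the 10 fits, and ST14, STXBP5L, PIMREG, ASPM and SHCBP1 in all.

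Of the 41 lists 4 had no called gene. For 39 cytosolic ribosomal proteins the median log2FC was -0.05, and none passed by adjusted p alone. For 33 proteasome subunits the median was -0.20, and 3 passed by adjusted p alone. For 20 genes of beta oxidation and the carnitine shuttle it was -0.16, with 2 passing by adjusted p alone, both lower. The other list was that of pericytes and smooth muscle given above. On the lists given no weight here, 32 of 35 tested cell division genes, 10 of 31 lipid synthesis genes and 13 of 24 macrophage markers were called lower and none higher. The macrophage count was 1 without WCOC 1, 2 without C 3 or C 5, 3 without WCOC 3, 4 without WCOC 4, 6 without WCOC 5 and 21 without WCOC 2, and on flow cell A alone it was 1.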

How the data were processed

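RNA of backfat biopsies was sequenced as paired-end libraries, 1 per pig. Per the labels and the methods of the study, the authors checked reads with FastQC, aligned them to Sscrofa11.1 with HISAT2 in a strand-specific mode, and deposited the raw count per gene from HTSeq; the strand option of the counting is not given in the sources used here. Lines of the files that name no gene stayed out, and 67.2% to 76.6% of a library's counts fell on genes.

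From the counts, genes were filtered with filterByExpr, scaled by TMM and tested in edgeR 4.0.16 (quasi-likelihood test, two-sided, Benjamini-Hochberg over 14918 genes), with 1 mean per diet over all 15 libraries. CPM used TMM library sizes. SE is that of the log2FC, and p-values measure the spread between pigs of 1 pen per diet. The script was tested on simulated counts. Alternatives were DESeq2 1.42.0 (test and size factors), limma-voom (limma 3.58.1), other filters, flow cells, a replicate block and leaving out libraries. Those leaving out C 1 with C 3, or C 3 with C 5, were chosen after seeing the data.

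The comparison and the gene lists were chosen with earlier results of these data known. Ranked genes were called, with a symbol, no overlap and a mean of at least 1 CPM. Members of the cell division, lipid synthesis, macrophage and osteoclast lists were left out. Named from this ranking were the 15 largest rises, the 8 largest falls and the 10 rises of highest CPM. In each list the called genes of highest CPM (3) and largest change (2) were added, with all members of lists of few genes. Other called or defining members are named to complete a list and were chosen after their values were seen. A few genes that the rule names are not reported here. Gene names came from the reference table, and positions and promoters from RefSeq for Sscrofa11.1.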

Additional observations from a re-analysis of the deposited data

Results flagged for a closer look

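In the genes and lists described above, 26 of 524 groups of 5 libraries had a highest or lowest library set apart from the other 4 by Dixon's test at the 95% level; chance sets apart about 1 group in 20, which is about the share found here. No explanation was weighed.

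Among genes that rose, the library set apart in C was C 1 for AK7 (1.13 CPM, lowest), UNC13B (21.4, lowest) and PDE6C (6.08, highest), C 2 for CRIM1 (165, highest) and EPHA4 (18.3, highest), C 3 for GNAZ (0.796, highest), KLKB1 (1.15, lowest), PRKAR2B (167, lowest) and SDR16C5 (282, lowest), C 4 for DLL1 (8.92, lowest) and C 5 for AQP3 (131, highest). In WCOC it was WCOC 4 for USHBP1 (29.9 CPM, highest).

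Among genes that fell, C 3 was highest for COL1A1 (10487 CPM) and C 4 lowest for WNT2 (0.701). In WCOC, WCOC 1 was lowest for C1QTNF3 (0.687 CPM), POSTN (201) and S1PR3 (5.56), WCOC 2 highest for ATF5 (29.6), GRN (212) and PIMREG (1.01), and WCOC 3 lowest for MAFF (4.31).

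Of the list sums, C 3 was highest for the interstitial matrix (56635 CPM), WCOC 4 lowest for the peroxisome (3682) and for one-carbon and sulfur amino acid enzymes (1082), WCOC 1 highest for RING-finger ligases (2763) and WCOC 2 highest for ribosomal proteins (22903).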

How the results depend on the processing

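The number of called genes, 933 (347 higher, 586 lower), stayed within 1.5 times under other size factors, filters, tools and a fit of the 10 libraries alone (277 higher and 489 lower) or with the flow cell as covariate (260 and 420). It was 486 (168 higher, 318 lower) on flow cell A alone, 34 (8 and 26) on lane 2 of that flow cell, with 4 C and 3 WCOC libraries, and 125 (16 and 109) when glmTreat tested against the log2FC limit. Without any limit on the log2FC it was 1493 (686 and 807). It was 443 (125 and 318) without C 1 and C 3 and 289 (87 and 202) without C 3 and C 5. With 1 library left out it ranged from 468 to 1163, from 181 to 454 higher and from 287 to 709 lower. Of the 347 rises 170 were also called without WCOC 1 and 178 without C 3. The causes were not tested.

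Same-numbered pigs of the diets share only a number (correlations of their deviations -0.283 to 0.345); with that number as a replicate block 473 genes were called, 187 higher and 286 lower.

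Of 194 called genes named, 78 were called in all 10 fits with 1 library left out, and none changed sign. Among genes that did not pass, the log2FC of CLOCK changed sign with the flow cell as covariate (0.00), on lane 2 (0.05) and with 1 library left out (0.00 to 0.03, within a range of -0.07 to 0.03). That of GPD1 changed sign in the same settings (-0.10, -0.12 and -0.10 to -0.04, within a range of -0.10 to 0.15), on flow cell A (-0.11) and without C 3 and C 5 (-0.14). Depth limits the genes of few counts, such as FAM131C and LEPR.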

Other observations

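CTCFL and PCK1, both higher in WCOC, are close neighbours on chromosome 17 of Sscrofa11.1. CTCFL lies on the minus strand from 57860231 to 57891094 and PCK1 on the plus strand from 57930507, 39412 bp further on, with 2 uncharacterised RefSeq genes between them. In WCOC replicates 1 to 5 CTCFL had 103, 69.8, 56.8, 24.2 and 76.6 CPM and PCK1 had 311, 138, 319, 149 and 426 CPM. WCOC 4 was the lowest of the 5 for CTCFL and next to the lowest for PCK1.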
